A study of Mus musculus with 5 samples.

Results

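AP-1 and immediate early genes were examined in colon tumors from mice with and without human Siglec-XII in the intestinal epithelium. The genes were chosen by symbol and numbered 10: Fos, Fosb and Fosl1 of the Fos family, Jun, Junb and Jund of the Jun family, and Egr1, Atf3, Ier2 and Dusp1. They were 10 of 52143 genes in the deposited table. All 10 had a TPM of at least 1 in at least 2 samples, as did 10338 genes in all, although Fosb, Fosl1 and Atf3 lay below that level in other samples. TPM is an abundance per length relative to all RNA of a sample, and all levels below are log2(TPM + 1) unless a TPM is named.

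RNA-Seq covered replicates 1 and 4 of the Control group (2 samples) and replicates 2, 3 and 4 of the SIGLEC12 group (3 samples). Control mice were Villin1-Cre-ERT animals, which carry a tamoxifen-inducible Cre recombinase driven by the Villin1 promoter of intestinal epithelial cells. SIGLEC12 mice (SIGLEC12-Villin1-Cre-ERT) carried in addition a conditional human SIGLEC12 at the ROSA26 locus, read from a CAG promoter once Cre has removed an EGFP stop cassette. All mice were female, were 8 weeks old at the start and received tamoxifen for 5 days at 10 mg/ml. All were then given the carcinogen azoxymethane (AOM) at 10 mg/kg and dextran sodium sulfate (DSS), which injures the colon epithelium, at 2.0% for 5 days with 14 days of recovery, over 4 cycles, and tumors were taken at day 87. The human transgene was not analysed here, so the SIGLEC12 label was not checked against its expression. Another Control animal is outside the samples used here.

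AP-1 is a transcription factor made of pairs of Fos and Jun family proteins. Immediate early genes are read soon after a growth factor, wounding or stress signal without any new protein being made, and their mRNAs are short-lived. MAP kinases, among them ERK1/2, pass such signals to the nucleus, and in the intestine the response accompanies epithelial repair and tumor growth. The study followed ERK1/2 signaling in cells expressing Siglec-XII, and the comparison here asked whether transcripts of these early genes differed between SIGLEC12 and Control tumors.

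RefSeq promoter sequence (GRCm38.p6) was used for 7 of the 10 genes. Egr1 was left out of the promoter search by choice, so its absence says nothing about whether RefSeq holds an entry for it. Fosl1 and Ier2 were not searched either, and whether RefSeq holds promoter entries for any of these genes was not settled. In the GRCm38 annotation (GENCODE M21) the genes span chr12:85473890-85477273 for Fos (ENSMUSG00000021250, plus strand), chr7:19302696-19310051 for Fosb (ENSMUSG00000003545, minus), chr1:191170296-191218039 for Atf3 (ENSMUSG00000026628, minus), chr8:84974484-84978718 for Junb (ENSMUSG00000052837, minus) and chr17:26505590-26562128 for Dusp1 (ENSMUSG00000024190, minus). Jund (ENSMUSG00000071076, chr8:70698949-70700616, plus), Ier2 (ENSMUSG00000053560, chr8:84661331-84662852, minus) and Jun (ENSMUSG00000052684, chr4:95049034-95052222, minus) are read as 1 exon each. Windows of 250 bases before the annotated start are shown for Fos, Fosb and Atf3, the 3 genes whose levels differed most between mice of one group, and for Junb, whose level differed least. For Dusp1 a stretch of 100 bases farther from the start is shown because it held the most motif matches. Capitals mark matches to TGACGT, the half-site read by CREB and ATF proteins, on either strand, or to TGACGTCA, the full cAMP response element, which contains TGACGT.
Fos, chr12:85473640-85473889, plus strand: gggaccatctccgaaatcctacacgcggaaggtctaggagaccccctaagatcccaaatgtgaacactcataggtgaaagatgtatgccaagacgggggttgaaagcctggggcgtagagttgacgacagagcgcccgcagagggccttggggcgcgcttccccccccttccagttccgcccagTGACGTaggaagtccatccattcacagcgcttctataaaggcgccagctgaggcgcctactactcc
Fosb, chr7:19310046-19310295, minus strand: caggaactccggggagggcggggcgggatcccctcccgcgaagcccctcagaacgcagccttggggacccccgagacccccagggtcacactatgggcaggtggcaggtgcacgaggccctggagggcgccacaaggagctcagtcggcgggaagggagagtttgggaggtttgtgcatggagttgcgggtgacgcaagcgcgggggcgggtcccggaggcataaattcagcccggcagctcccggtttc
Atf3, chr1:191183334-191183583, minus strand: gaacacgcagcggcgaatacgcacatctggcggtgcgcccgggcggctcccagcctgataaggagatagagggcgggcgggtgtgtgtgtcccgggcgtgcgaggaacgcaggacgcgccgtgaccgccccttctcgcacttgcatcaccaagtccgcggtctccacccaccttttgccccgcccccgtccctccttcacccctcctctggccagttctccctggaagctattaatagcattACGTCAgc
Junb, chr8:84978749-84978998, minus strand: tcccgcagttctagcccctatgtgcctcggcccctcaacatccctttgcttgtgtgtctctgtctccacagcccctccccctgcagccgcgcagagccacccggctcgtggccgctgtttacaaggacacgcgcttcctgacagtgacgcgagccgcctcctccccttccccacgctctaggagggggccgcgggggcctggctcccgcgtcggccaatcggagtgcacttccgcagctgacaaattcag
Dusp1, chr17:26508573-26508672, minus strand: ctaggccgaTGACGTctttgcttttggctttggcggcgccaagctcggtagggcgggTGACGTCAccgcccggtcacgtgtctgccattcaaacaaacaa
The Fos and Junb windows lay outside annotated exons of GENCODE M21, whereas 7 bases of the Atf3 window and 6 of the Fosb window fell in one. The Atf3 window and the Dusp1 stretch lay inside the span annotated for their gene, ahead of an internal start.

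Both strands of each 250-base window were searched for 5 motifs: the CArG box bound by serum response factor, TGACGTCA, TGACGT, the AP-1 site TGACTCA and the Egr1 site GCGTGGGCG. Counted back from the annotated start, with the base before it as -1, Fos held TGACGT at -66 to -61 and Atf3 held it on the opposite strand at -8 to -3. Dusp1 held TGACGT at -191 to -186 and TGACGTCA at -143 to -136. The windows of Fosb, Jun, Junb and Jund held none of the 5. The Jund window, chr8:70697489-70697738, follows the RefSeq start and ends well before the Jund start in GENCODE, so the bases next to the latter were not searched. Over 32851 RefSeq promoters cut to the same length, 6.47% held TGACGT, 1.55% held TGACGTCA, 4.46% held TGACTCA, 1.47% held a CArG box and 0.536% held GCGTGGGCG. A match describes the letters in a window and is not evidence of binding. Only matches to these patterns inside the window were counted, so variant sites and sites farther away were not searched.

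The samples differed in the makeup of their TPM total before any gene was compared. Protein-coding genes held 5.70% and 6.73% of the TPM total in Control replicates 1 and 4 and 8.75% to 9.72% in the SIGLEC12 replicates. Genes annotated as miRNAs held most of the rest, 85.95% and 83.97% in Control and 77.25% to 80.05% in SIGLEC12. Because TPM is taken per length, short RNAs weigh heavily in it. These are shares of TPM and not of reads or of RNA mass. Genes at a TPM of at least 1 numbered 7947 in Control replicate 1, the fewest, and 9532 to 10090 in the other 4 samples. Of all genes tested, 87.2% had a higher mean in SIGLEC12, with a median log2 difference of 0.38. Rescaling each sample to the same protein-coding total brought this median to 0.01 and the share to 51.1%, so group differences below are given under both scalings. Read depth is unknown because TPM does not keep it. In bulk tumor RNA, fewer cells of a type and less RNA per cell cannot be told apart. The p-values below measure only the spread between these samples.

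The Fos family varied widely between mice of the same group. Fos, the classic partner of Jun in AP-1, measured 2.76 and 4.05 in Control replicates 1 and 4 and 5.44, 2.70 and 4.34 in SIGLEC12 replicates 2, 3 and 4, the order kept below. SIGLEC12 replicate 2 was the highest and SIGLEC12 replicate 3 the lowest of all 5, so the SIGLEC12 range enclosed both Control values. In TPM, Fos ran from 5.50 to 42.5 within the SIGLEC12 group alone. Fosb, a Fos relative with a strongly inducible transcript, measured 0.16 and 1.76 in Control and 2.33, 0.21 and 2.10 in SIGLEC12. Control replicate 1 and SIGLEC12 replicate 3 lay near 0, at 0.117 and 0.154 TPM, and the remaining 3 samples held 2.40 to 4.04 TPM. Fosl1, which encodes Fra-1, a Fos relative linked to wound edges and invasive tumor cells, was the lowest of the 10 genes. It measured 0.14 and 1.12 in Control and 0.67, 0.43 and 1.62 in SIGLEC12. Its highest samples were SIGLEC12 replicate 4 and Control replicate 4, and the groups overlapped.

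The Jun family varied less. Junb, a Jun relative that can restrain Jun, measured 3.70 and 3.95 in Control and 4.32, 3.91 and 4.22 in SIGLEC12, so 1 SIGLEC12 sample lay below the higher Control. The transcript that the table names for Junb is only 492 bases long, which bears on its level per length. Jund, the family member that most cells read without a stimulus, measured 3.12 and 3.86 in Control and 4.54, 3.94 and 4.43 in SIGLEC12. All 3 SIGLEC12 samples were above both Control samples, replicate 3 narrowly. Jund stood under 2 identifiers with identical values and was taken once. Jun, the founding partner of Fos, measured 2.38 and 2.75 in Control and 3.46, 3.39 and 2.54 in SIGLEC12. SIGLEC12 replicates 2 and 3 were the high samples for Jun, and SIGLEC12 replicate 4 fell between the Control samples.

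The remaining 4 genes split likewise into variable and steady ones. Egr1, a zinc finger transcription factor induced through serum response factor, measured 1.40 and 2.06 in Control and 2.79, 1.14 and 2.41 in SIGLEC12. As with Fos, SIGLEC12 replicate 2 was highest and SIGLEC12 replicate 3 lowest. Atf3, a stress-induced factor that pairs with Jun proteins, measured 0.49 and 1.80 in Control and 3.61, 1.11 and 1.67 in SIGLEC12. A single sample, SIGLEC12 replicate 2, stood at 11.2 TPM while the other 4 lay between 0.406 and 2.49 TPM. Ier2, an early gene for a nuclear protein, measured 2.38 and 2.74 in Control and 3.50, 2.89 and 3.25 in SIGLEC12, with no overlap between groups. Dusp1, the phosphatase that switches off MAP kinases and so limits the response, measured 1.21 and 2.48 in Control and 2.81, 2.19 and 2.10 in SIGLEC12. Control replicate 1 was low for Dusp1, and Control replicate 4 exceeded 2 of the 3 SIGLEC12 samples.

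**Figure D1:**
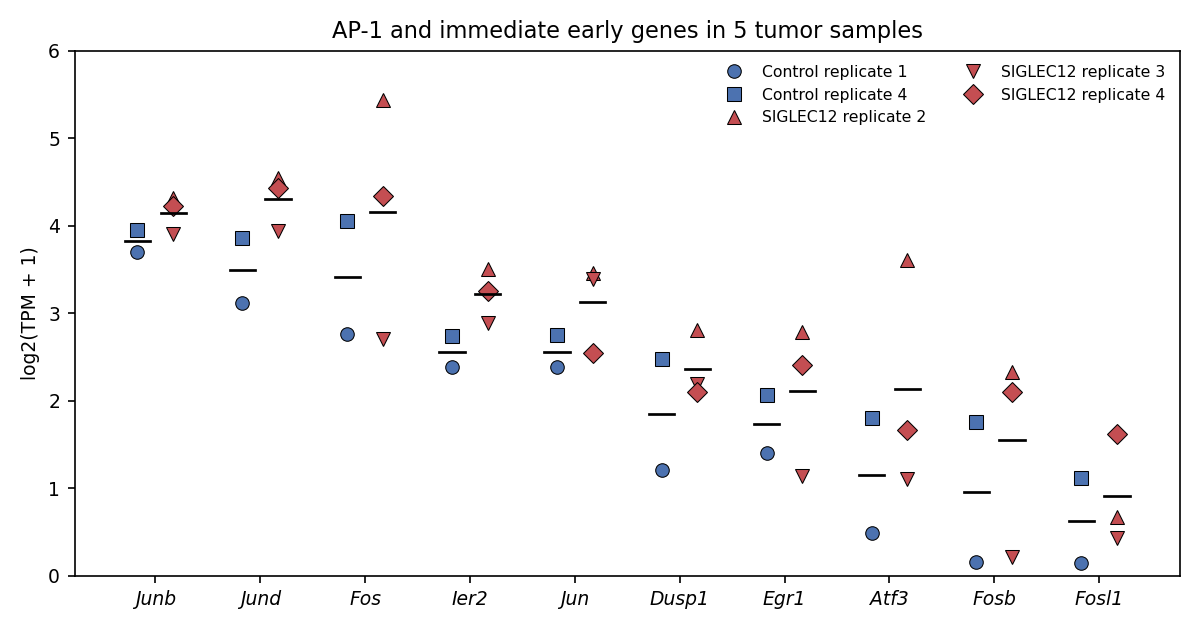
Level of each gene in log2(TPM + 1) (vertical axis) in the 2 Control samples (blue) and 3 SIGLEC12 samples (red), with a marker for each replicate and a bar at each group mean, ordered by mean level. Fos spans 2.70 to 5.44 and Fosb 0.21 to 2.33 within the SIGLEC12 group, whereas Junb stays between 3.91 and 4.32 there, and of the 10 genes Jund and Ier2 have separate groups.

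By mean level over the 5 samples the order was Junb (4.02 ± 0.25, SD, n = 5), Jund (3.98 ± 0.56), Fos (3.86 ± 1.15), Ier2 (2.95 ± 0.44), Jun (2.90 ± 0.50), Dusp1 (2.16 ± 0.60), Egr1 (1.96 ± 0.69), Atf3 (1.74 ± 1.17), Fosb (1.31 ± 1.05) and Fosl1 (0.80 ± 0.58). Of the neighbours in this order, Jun alone stood above the next gene, Dusp1, in 5 of 5 samples. Junb was above Jund in 2 of 5 samples and Jund above Fos in 3 of 5, so these highest genes did not differ beyond their spread. The other neighbouring pairs kept their order in 3 or 4 of 5 samples. Among the protein-coding genes tested, Junb held the 89.8th to 93.1st percentile in every sample. Fos moved between the 71.2nd percentile in SIGLEC12 replicate 3 and the 96.9th in SIGLEC12 replicate 2, and Egr1 between the 10.6th and the 71.9th in the same pair of samples.

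No gene of the 10 differed between SIGLEC12 and Control at an adjusted p under 0.05 in limma. Neither did any of the 10338 genes tested (0% called), and the smallest adjusted p over all genes was 0.0974. Without Control replicate 4, which leaves a single Control sample, 962 genes were higher and 97 lower at an adjusted p under 0.05 with 2-fold, and 0 of the 10 genes were among them. All 10 genes had a higher SIGLEC12 mean in the deposited values, beside 87.2% of all genes, with a median log2 fold change of 0.58 against 0.38 over all genes. At an unadjusted limma p under 0.05, 2 of the 10 were higher, Jund and Ier2, where 33.4% of all genes were called higher and 0.909% lower. These were also the 2 genes whose groups did not overlap, where 54.1% of all genes were separated in that direction. None of the 10 reached the unadjusted p with at least 2-fold, which 3.97% of all genes reached in the higher direction and 0.445% in the lower. On the log2(TPM + 1) scale with all samples weighted alike, no mean difference among the 10 came to 2-fold. By that much 4.68% of all genes were higher and 0.754% lower.

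Jund averaged 3.49 ± 0.53 in the Control mice (SD, n = 2) and 4.30 ± 0.32 in the SIGLEC12 mice (SD, n = 3). Its log2 fold change was 0.81 with a 95% interval of 0.06 to 1.56. Its limma adjusted p was 0.128, and a two-sided exact permutation test gave p = 0.2, where the smallest p the design allows is 0.1. Ier2 was 2.56 ± 0.25 in Control and 3.22 ± 0.30 in SIGLEC12, a log2 fold change of 0.66 with an interval of 0.07 to 1.25, a limma adjusted p of 0.124 and an exact permutation p of 0.2. After rescaling, the differences were 0.30 (interval -0.35 to 0.95) for Jund and 0.18 (interval -0.34 to 0.71) for Ier2, and both pairs of groups overlapped. Without Control replicate 1 the deposited values gave 0.44 for Jund and 0.48 for Ier2.

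The mean differences of Atf3 and Fos, like those of the remaining genes, had intervals that included 0. Atf3 had a log2 fold change of 0.98 (interval -0.84 to 2.80, limma adjusted p = 0.357) and Fos one of 0.76 (interval -1.16 to 2.67, limma adjusted p = 0.486). Without SIGLEC12 replicate 2 these became 0.24 and 0.12, and without Control replicate 1 they were 0.33 and 0.12. Fosb stood at 0.59 (interval -1.18 to 2.35), and Jun, Dusp1, Egr1, Junb and Fosl1 at 0.57, 0.52, 0.38, 0.33 and 0.27. The limma adjusted p of these 6 genes ran from 0.232 to 0.643 and the exact permutation p from 0.3 to 0.7. Leaving out Control replicate 1 turned Fosb to -0.22, Fosl1 to -0.22 and Dusp1 to -0.12.

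**Figure D2:**
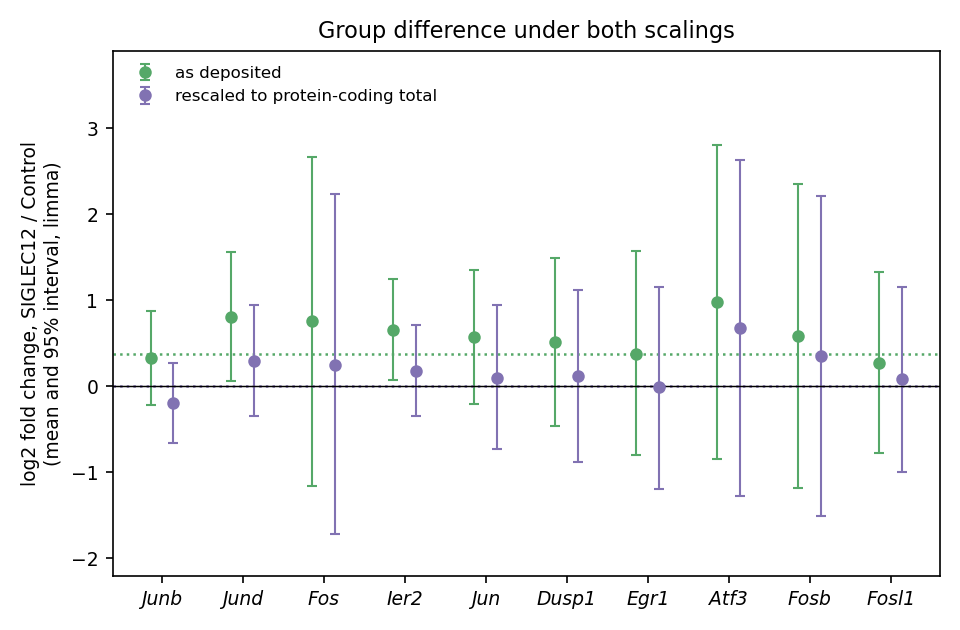
Log2 fold change of SIGLEC12 over Control (vertical axis) for each gene with its 95% limma interval, from deposited values (green) and with each sample rescaled to its protein-coding RNA (purple), with dotted lines at the median of all genes tested, 0.38 and 0.01. As deposited, the Jund and Ier2 intervals alone lie above 0, and after rescaling all 10 intervals include 0.

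Rescaled values put 8 of the 10 genes higher in SIGLEC12 and 2 lower, beside 51.1% of all genes higher and 48.9% lower. The rescaled log2 fold changes ran from -0.19 for Junb to 0.68 for Atf3, with Egr1 at -0.01, and their median was 0.15 against 0.01 over all genes. None of the 10 reached an unadjusted limma p under 0.05, where 4.45% of all genes were higher and 6.31% lower. With at least 2-fold in addition 0.368% of all genes were higher and 1.37% lower, and at 2-fold alone 0.871% and 2.22%, again with none of the 10. None had separate groups, where 15.6% of all genes were separated upward and 16.8% downward. Junb was at 4.14 and 4.18 in Control and 4.17, 3.78 and 3.95 in SIGLEC12 on this scale, and its direction was the reverse of that in the deposited values.

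A ratio of TPM within a sample does not depend on that scaling. Relative to Jund, the log2 TPM ratio of Junb was 0.64 and 0.09 in Control and -0.23, -0.04 and -0.21 in SIGLEC12. All SIGLEC12 ratios lay below both Control ratios, with a mean difference of -0.53 and an exact permutation p of 0.1, the smallest possible. Of 10073 genes with a ratio, 26.6% were likewise separated downward against Jund and 2.08% upward. Fos relative to Jund was -0.41 and 0.19 in Control and 0.94, -1.39 and -0.09 in SIGLEC12, a mean difference of -0.07 (exact permutation p = 1.0). Ier2 kept a near constant ratio to Jund, between -1.26 and -0.87 in all 5 samples. The ratios of Ier2 and of the other 6 genes overlapped between groups.

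The spread between mice of the same group set the 10 genes apart from each other. The SD within groups, from the limma fit, was 1.244 for Fos, 1.197 for Atf3 and 1.157 for Fosb. Among genes of like mean level, within 0.25 on the log2 scale, the Fos SD lay at the 98.5th percentile of 398 genes, whose median was 0.266. Atf3 and Fosb both lay at the 99.3rd percentile, of 2197 and 2570 genes. Egr1 followed with an SD of 0.757 at the 96.6th percentile and Dusp1 with 0.607 at the 94.9th. Fosl1 and Jun were less extreme, with SDs of 0.652 and 0.444 at the 89.2nd and 84.3rd percentiles. Jund (0.399) and Ier2 (0.289) lay at the 69.9th and 61.9th percentiles, and Junb, at 0.202 and the 28.9th percentile, was steadier than the median gene of its level. These percentiles describe 5 samples and carry no test.

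**Figure D3:**
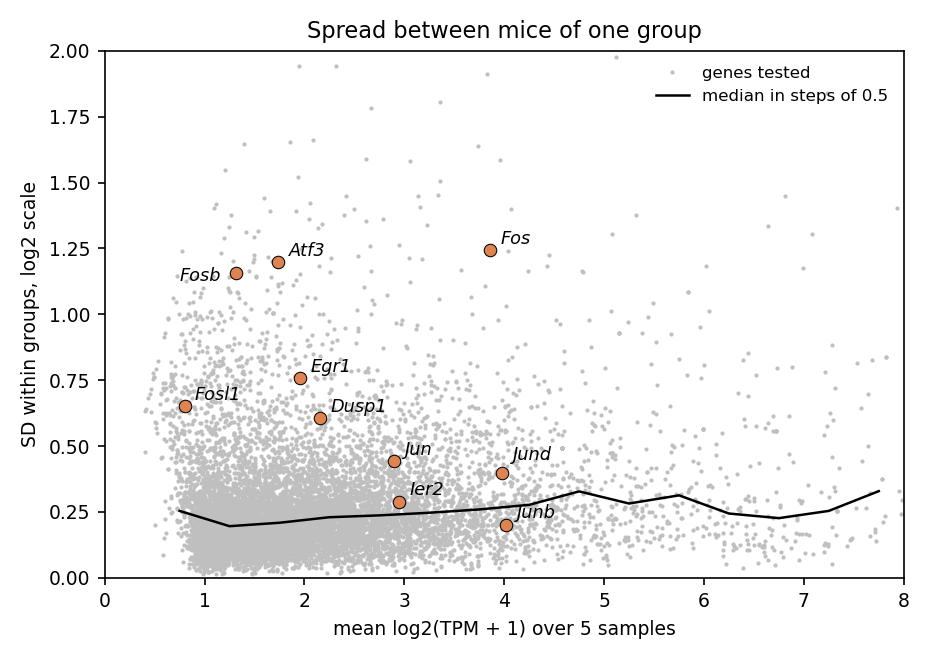
SD within groups (vertical axis, log2 scale) against mean log2(TPM + 1) over 5 samples (horizontal axis) for the genes tested (grey), with the median in steps of 0.5 (black line) and the 10 genes in orange, where 59 genes lie beyond the axes. Fos, Atf3 and Fosb lie at SDs of 1.157 to 1.244, far above the line, while Junb at 0.202 lies below it.

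Several genes shared their high and low samples. SIGLEC12 replicate 2 exceeded SIGLEC12 replicate 3 for all 10 genes, beside 59.4% of all genes tested. The ratio of TPM between these mice was 26.3 for Fosb, 9.66 for Atf3, 7.74 for Fos and 4.94 for Egr1, against 1.60 for Ier2, 1.54 for Jund, 1.35 for Junb and 1.06 for Jun. Fosb in SIGLEC12 replicate 3 was at 0.154 TPM, so its ratio rests on a very low value. On the log2(TPM + 1) scale 4 of the 10 genes (Fos, Fosb, Egr1 and Atf3) differed by at least 2-fold between these mice, as did 1.56% of all genes in that direction. SIGLEC12 replicate 4 also exceeded SIGLEC12 replicate 3 by at least 2-fold for Fos, Fosb, Egr1 and Fosl1, beside 2.34% of all genes. Atf3 had a TPM ratio of 1.88 between replicates 4 and 3, and Jun went the other way at 0.509. The protein-coding share of the TPM total was 8.85% in SIGLEC12 replicate 2 and 8.75% in replicate 3.

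In the Control group, replicate 4 was at least 2-fold above replicate 1 for Fos, Fosb, Atf3 and Dusp1, beside 7.22% of all genes in that direction. The typical gene was lower in Control replicate 1, with a median-ratio size factor of 0.6876 against 0.9095 in Control replicate 4. All 10 genes were likewise higher in Control replicate 4 than in Control replicate 1. The share of all genes going that way was not counted. The TPM ratio of replicate 4 to replicate 1 was 20.5 for Fosb, 6.14 for Atf3, 3.48 for Dusp1 and 2.68 for Fos. It was 1.21 for Junb and 1.35 for Ier2. Fos, Fosb and Atf3 were apart by at least 2-fold within both groups, and for all 3 the difference between group means was smaller than the range within SIGLEC12.

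**Figure D4:**
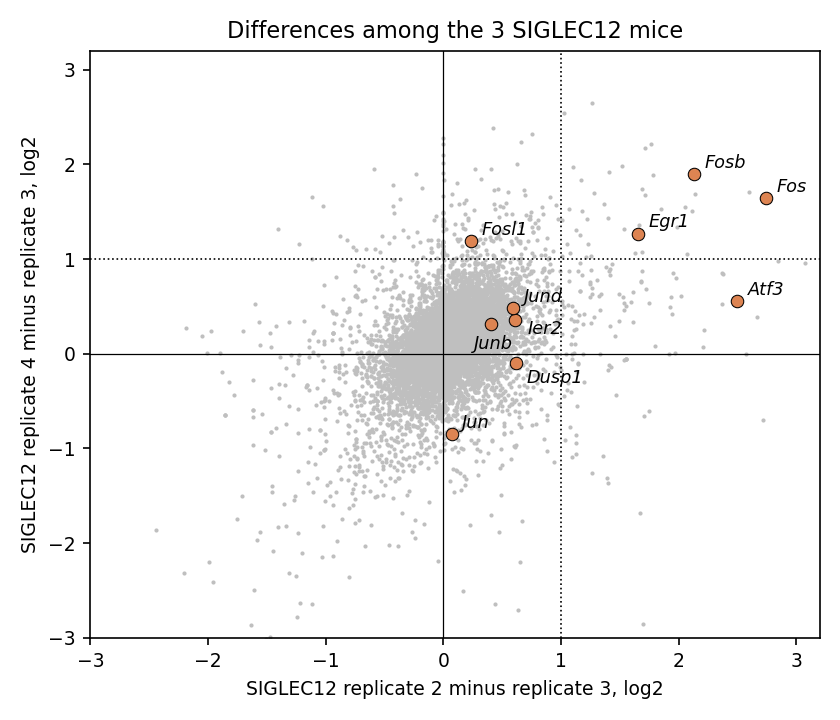
Difference in log2(TPM + 1) of SIGLEC12 replicate 2 from replicate 3 (horizontal axis) and of replicate 4 from replicate 3 (vertical axis) for the genes tested (grey) and the 10 genes (orange), with dotted lines at 2-fold, where 14 genes lie beyond the axes. Fos, Fosb and Egr1 lie past both dotted lines, Atf3 past the vertical one and Fosl1 past the horizontal one.

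Other genes of the pathway were described by lists. The other AP-1 family genes numbered 7, of which 5 were tested, and 3 were higher and 2 lower in SIGLEC12 with a median log2 fold change of 0.07, or -0.37 rescaled. None reached an unadjusted limma p under 0.05. Atf2, a partner of Jun, was at 1.97 and 2.24 in Control and 2.46, 2.51 and 2.51 in SIGLEC12, without overlap, as were 54.1% of all genes. Its log2 fold change was 0.39 in the deposited values and -0.05 rescaled, where the groups overlapped. Fosl2, which encodes Fra-2 and was singled out after its values were seen, lay between 3.35 and 3.88 in the 5 samples. Batf and Batf3 did not pass the filter.

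Other immediate early genes numbered 29, of which 24 were tested, with 20 higher, 4 lower and a median of 0.53. At an unadjusted limma p under 0.05, 4 of the 24 were higher and 0 lower, beside 33.4% and 0.909% of all genes, and 0 passed at an adjusted p under 0.05. Rhob, a small GTPase, was at 3.01 and 3.57 in Control and 4.53, 4.35 and 3.98 in SIGLEC12. Ctgf, a matricellular protein, was at 0.75 and 0.83 in Control and 1.60, 1.43 and 1.86 in SIGLEC12. Btg2, an antiproliferative early gene, was at 1.79 and 2.73 in Control and 3.54, 3.08 and 2.78 in SIGLEC12. In the deposited values 6 of the 24 genes, these 3 among them, had groups separated upward, beside 54.1% of all genes. Rescaled, Ctgf stayed separate with a log2 fold change of 0.55, whereas the groups overlapped for Rhob (0.49) and Btg2 (0.42). Over the list the rescaled values gave 12 higher and 12 lower with a median of 0.02. An unadjusted limma p under 0.05 was reached by 1 higher and 2 lower, beside 4.45% and 6.31% of all genes. Rescaled groups were separated upward for 1 gene and downward for 2, beside 15.6% and 16.8% of all genes. Control replicate 1 was the lower Control sample for Rhob, Ctgf and Btg2 in the deposited values. Leaving out Control replicate 4 therefore widened their differences and left a single Control sample. Of the list, 21 of 24 genes (87.5%) were higher in SIGLEC12 replicate 2 than in replicate 3. Nr4a1, a nuclear receptor and early gene singled out after its values were seen, measured 0.47 and 1.51 in Control and 2.19, 0.77 and 1.60 in SIGLEC12, the same order of samples within each group as Fos. Egr2, Egr3, Egr4, Nr4a2 and Nr4a3 did not pass the filter.

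Upstream, the MAP kinase pathway list numbered 21 genes, of which 20 were tested, with 19 higher, 1 lower and a median of 0.47. An unadjusted limma p under 0.05 was reached by 6 of the 20, all higher, beside 33.4% of all genes, and the groups did not overlap for 13, all higher, beside 54.1%. Rescaled, 0 were higher and 2 lower at that p, beside 4.45% and 6.31% of all genes. On that scale 1 was separated upward and 3 downward, beside 15.6% and 16.8%. Mapk3, which encodes ERK1, was at 3.74 and 4.32 in Control and 4.97, 4.98 and 5.01 in SIGLEC12. Its log2 fold change was 0.95 with a limma adjusted p of 0.0974. Araf, a Raf kinase, and Mapk9, which encodes the kinase JNK2, had log2 fold changes of 0.51 and 0.66, or 0.07 and 0.28 with overlapping groups when rescaled. Rescaled, the list had 11 genes higher and 9 lower with a median of 0.01, and Mapk3 stood at 0.43 with its groups still separate. These are transcript levels, and kinase activity was not measured in these samples. Feedback inhibitors of MAP kinases numbered 10, and the 8 tested were all higher with a median of 0.40, beside 87.2% of all genes. Rescaled, 6 were higher and 2 lower with a median of 0.06, beside 51.1% of all genes higher. None of the 8 reached an unadjusted limma p under 0.05. Spry1, Dusp4 and Spred1, 3 of the 8, had separate groups, beside 54.1% of all genes, with log2 fold changes of 0.43, 0.58 and 0.43. Rescaled, these were 0.20, 0.25 and 0.09, and the groups overlapped for all 3.

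Downstream, 8 of 10 known AP-1 target genes were tested, with 6 higher, 2 lower and a median of 0.75, or 0.42 rescaled. Mmp10, a stromelysin that degrades matrix, was at 0.01 and 1.85 in Control and 3.65, 2.55 and 2.80 in SIGLEC12. Mmp13, a collagenase, was at 0.06 and 2.09 in Control and 3.45, 2.65 and 3.15 in SIGLEC12. Both were near 0 in Control replicate 1, and both had separate groups under both scalings. Of the 8 genes tested, 5 had groups separated upward as deposited, beside 54.1% of all genes. Rescaled, 3 were separated upward and 1 downward, beside 15.6% and 16.8% of all genes. The log2 fold changes of Mmp10 and Mmp13 were 2.07 and 2.01 (limma adjusted p = 0.0974 and 0.0980). Rescaled they were 1.81 and 1.73 (limma adjusted p = 0.457 for both). Without Control replicate 1 the deposited values gave 1.15 for Mmp10 and 0.99 for Mmp13. Without Control replicate 4 they gave 2.99 and 3.02. Each of these fits leaves 1 Control sample. With all samples, Mmp10 and Mmp13 were the 2 genes of the list past an unadjusted limma p of 0.05 and 2-fold under both scalings. In that direction 3.97% of all genes passed as deposited and 0.368% rescaled. Ccnd1, which encodes cyclin D1, was at 2.13 and 2.90 in Control and 3.40, 3.25 and 3.34 in SIGLEC12, a log2 fold change of 0.81, or 0.34 with overlapping groups when rescaled. Without Control replicate 1 the deposited values gave 0.43 for Ccnd1. The list held 5 genes of 8 higher at an unadjusted limma p under 0.05 as deposited, beside 33.4% of all genes. Rescaled it held 2, beside 4.45%, and at an adjusted p under 0.05 it held 0. Mmp3 and Mmp9 did not pass the filter.

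Heat shock genes, which respond to protein damage, followed another pattern. Of 8 genes, 4 were higher and 4 lower in SIGLEC12 with a median log2 fold change of 0.02, or -0.44 with 1 higher and 7 lower when rescaled. By limma, 1 was higher and 0 lower at an unadjusted p under 0.05 as deposited, beside 33.4% and 0.909% of all genes, and 0 higher and 3 lower when rescaled, beside 4.45% and 6.31%. At an adjusted p under 0.05, 0 passed under either scaling. Hspa1a, a stress-induced chaperone, was at 1.39 and 1.09 in Control and 0.95, 0.80 and 0.63 in SIGLEC12, and its reads are uncertain because Hspa1b is a near-identical copy. Hspe1 and Hspa8, a mitochondrial and a constitutive chaperone, were higher without overlap in the deposited values, as were 54.1% of all genes. Their differences were 0.64 and 0.49, or 0.13 and -0.05 with overlapping groups when rescaled. Hspa1a stayed lower without overlap, at -0.45 as deposited and -0.75 rescaled. Of the 8 genes, 1 was separated downward as deposited and 3 rescaled, beside 1.67% and 16.8% of all genes.

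**Figure D5:**
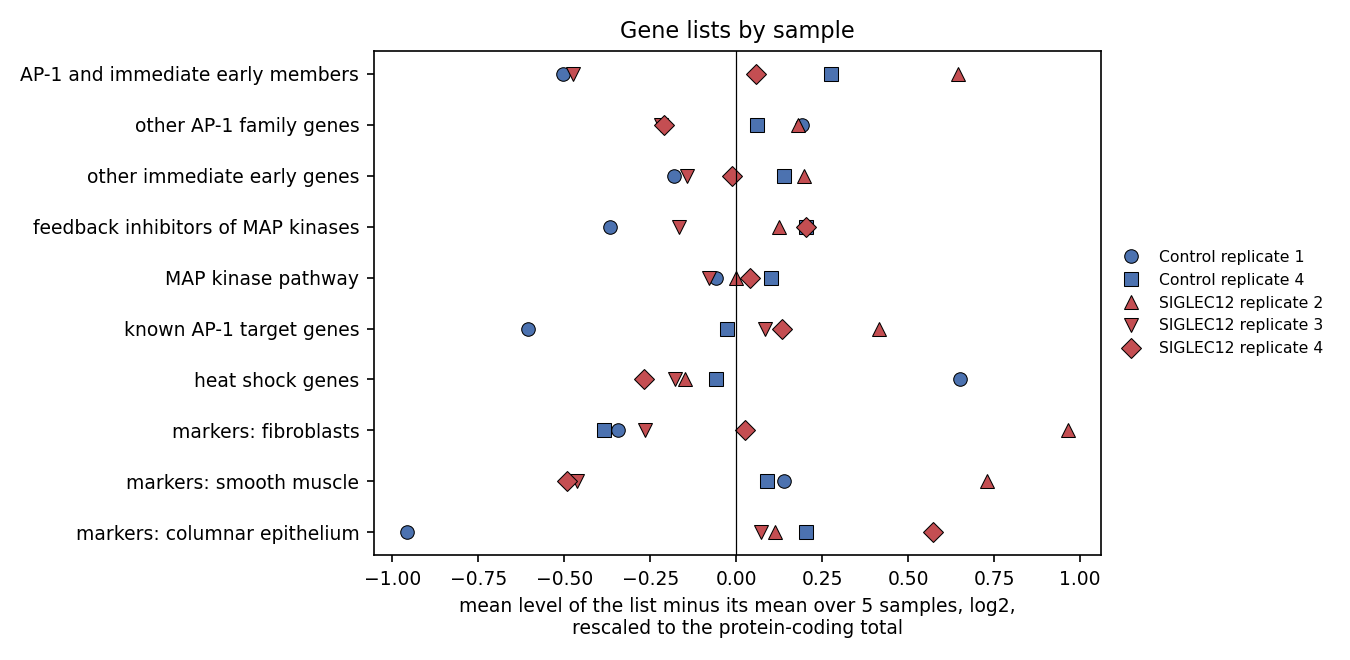
Mean log2 level of each gene list in each sample, rescaled to the protein-coding total and given as the difference from the mean of that list over the 5 samples, with Control in blue and SIGLEC12 in red. Before centring, the 10 genes range from 2.07 in Control replicate 1 and 2.10 in SIGLEC12 replicate 3 to 3.22 in SIGLEC12 replicate 2, the MAP kinase pathway stays within 2.56 to 2.74, and heat shock genes are highest in Control replicate 1, at 3.87.

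Markers of tissue makeup moved with some of these values. Of 12 columnar epithelium markers 11 were tested, and all 11 were higher in SIGLEC12 under both scalings. Beside them, 87.2% of all genes were higher as deposited and 51.1% rescaled. The mean level of these markers was 4.08 and 5.44 in Control and 5.71, 5.65 and 6.31 in SIGLEC12. Rescaled, it was 4.50 and 5.66 in Control and 5.57, 5.53 and 6.03 in SIGLEC12, so the groups overlapped. As deposited, Control replicate 1 was the lowest sample for 8 of the 10 genes and also for epithelium. Rescaled, it stayed the lowest for Fosl1, Jund, Atf3 and Dusp1 alone among the 10, and for the epithelium markers. Summed TPM of these markers, as deposited like the sums below, was 339 and 992 in Control and 1220 to 1860 in SIGLEC12. SIGLEC12 replicate 2, as deposited the highest sample for 9 of the 10 genes, was also the highest for fibroblast markers. Rescaled, Junb and Dusp1 were highest in Control replicate 4 instead. Of 6 fibroblast markers 5 were tested, and all 5 were higher in SIGLEC12 under both scalings. Their summed TPM was 57.9 in SIGLEC12 replicate 2 and 8.71 to 24.4 elsewhere. Of the 6 smooth muscle markers, 5 were higher in SIGLEC12 as deposited, whereas 2 were higher and 4 lower when rescaled. The smooth muscle sum was 112 TPM in SIGLEC12 replicate 2 and 45.3 to 52.0 elsewhere. In SIGLEC12 replicate 4, where Fos, Fosb and Egr1 were also above replicate 3, the smooth muscle and fibroblast sums were 48.5 and 24.4, against 45.7 and 18.0 in replicate 3. Myeloid markers, of which 6 of 8 were tested, summed to 11.5 and 4.75 TPM in Control and 21.9, 23.8 and 5.63 in SIGLEC12. Neutrophil markers, of which 3 of 5 were tested, summed to 21.6 and 25.0 TPM in Control and 24.5, 44.6 and 53.5 in SIGLEC12. Of these markers Ly6g was lowest in Control replicate 1, at 2.41, and highest in SIGLEC12 replicate 4, at 5.52. S100a8 went another way, with its highest levels in SIGLEC12 replicate 3 (4.24) and Control replicate 1 (3.46), so the sum does not follow a single pattern. None of the 5 endothelial, 5 T cell or 5 B and plasma cell markers passed the filter, and their sums ran from 0.966 to 4.60, 0.289 to 0.736 and 0.126 to 1.44 TPM. The part of these markers in the differences of the 10 genes was not tested.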

How the data were processed

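The values deposited by the authors were log2(TPM + 1), on a log2 scale, for 52143 genes in 5 samples. The submitters' processing notes name kallisto 0.45.0 and GRCm38. The annotation release and whether technical libraries were averaged are not given in the sources used here. The labels name a stranded total RNA kit and the study's methods an mRNA kit, which bears on the low protein-coding share, and which was used was not settled. Of the gene identifiers, 98.45% were in GENCODE M21, from which biotypes and positions came. TPM is relative to every annotated RNA and keeps no depth, so no counting interval is given.

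Genes with a TPM of at least 1 in at least 2 samples (10338) were fitted with limma 3.58.1 in R 4.3.3 (lmFit, eBayes with trend) on log2(TPM + 1). The pseudocount of 1 understates changes of low genes. P-values were Benjamini-Hochberg adjusted over all 10338 genes. A looser count took an unadjusted p up to 0.05 together with 2-fold. Single values were compared by two-sided exact permutation. Rescaled values set the protein-coding TPM of each sample to the mean over samples. The fit was also run on simulated data with independent noise for each gene. These had no shift between whole samples, unlike the real values, so that run says nothing about the scaling. All 10 members were named, and from each list up to 3 genes per direction with the smallest p and groups that did not overlap. Members and lists were chosen with earlier results of these data known. The fit was repeated with no filter, with 5 TPM as the minimum, with a pseudocount of 0.1, under 4 other scalings, with no trend, with sample weights and without each sample in turn.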

Additional observations from a re-analysis of the deposited data

How the results depend on the processing

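Across up to 16 alternatives for each of the 10 genes, 155 log2 fold changes were obtained and none passed at an adjusted limma p under 0.05 (lowest 0.055, Jund without Control replicate 4). The direction turned in 23 of them, in 8 genes, and in none for Jund or Ier2. Junb turned to -0.19 with the protein-coding total, -0.25 with quantile normalization, -0.20 with median-ratio size factors and -0.28 with a length trend removed, and Egr1 to -0.01 and -0.02 with the protein-coding total and median-ratio factors. Leaving out 1 sample at a time, which for a Control leaves 1 sample assumed to vary like the others, gave 0.12 to 1.49 for Fos, -0.22 to 1.39 for Fosb, -0.22 to 0.76 for Fosl1 (-0.08 without SIGLEC12 replicate 4), 0.39 to 0.87 for Jun, 0.20 to 0.45 for Junb, 0.44 to 1.18 for Jund, 0.04 to 0.87 for Egr1, 0.24 to 1.64 for Atf3, 0.48 to 0.84 for Ier2 and -0.12 to 1.15 for Dusp1. Rescaling together with leaving out a sample was chosen after seeing the data. Without Control replicate 1 it gave -0.29 for Fos, -0.51 for Fosb, -0.44 for Fosl1, -0.21 for Junb, -0.28 for Egr1 and -0.47 for Dusp1. Without SIGLEC12 replicate 2 it gave -0.40 for Fos, -0.04 for Fosb, -0.08 for Jun, -0.29 for Junb, -0.36 for Egr1, -0.06 for Atf3 and -0.11 for Dusp1. Ratios to Jund with 1 sample left out spanned -0.63 to 0.53 for Fos, -1.38 to 2.16 for Fosb, -1.11 to 1.56 for Fosl1 (-0.09 with a pseudocount of 0.1), -0.56 to 0.19 for Jun, -0.75 to 0.09 for Egr1, -0.17 to 1.62 for Atf3, -0.31 to 0.08 for Ier2 and -0.62 to 0.36 for Dusp1, each turning sign, and -0.80 to -0.25 for Junb. Among the 10 genes, those with groups apart upward fell from 2 to 0 under each rescaling, also without Control replicate 1 or SIGLEC12 replicate 2, and numbered 2 to 8 with 1 sample left out (8 without Control replicate 4, beside 79% of all genes, and 6 without SIGLEC12 replicate 3, beside 66.2%). Downward they numbered 1 with quantile normalization or the length trend removed, 2 rescaled without Control replicate 1 and 1 rescaled without SIGLEC12 replicate 2, beside 14%, 14.6%, 35.7% and 23.9% of all genes. At an unadjusted p and 2-fold with 1 SIGLEC12 sample left out, Fos alone was called, higher without SIGLEC12 replicate 3, beside 3.75% of all genes. At 2-fold alone with all samples, Fosb (1.05) and Atf3 (1.48) were higher with a pseudocount of 0.1, beside 13.7% of all genes. With sample weights Fos (1.15) and Atf3 (1.48) were higher by that much, beside 4.54%. Without Control replicate 4, which leaves 1 Control sample, the log2 fold changes of Jund and Dusp1 were 1.18 and 1.15. Over all genes, the count past an adjusted p and 2-fold was 0 to 962 higher and 0 to 97 lower with 1 sample left out, the highest without Control replicate 4. At an unadjusted p and 2-fold, 410 higher and 46 lower became 143 to 1366 and 51 to 146. The higher count was 1087 with a pseudocount of 0.1, 38 with the protein-coding total, 45 with quantile normalization, 46 with median-ratio factors, 51 with the length trend removed, and 27 and 39 in the pair of settings added later. The lower count was 19 with a filter of 5 TPM, then 142, 131, 139 and 71 in the same scalings and 223 and 180 in the added pair. That filter left 5 of the 10 genes. The cause of these shifts was not tested. No paired analysis was possible because the Control and SIGLEC12 samples have 1 replicate number, 4, in common. Depth behind low values such as those of Fosb and Fosl1 is unknown.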

Other observations

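Genes that shared the order of Fos among the SIGLEC12 mice were counted after that order had been seen. Of 10338 genes tested, 41 (0.397%) were at least 2-fold higher in both SIGLEC12 replicates 2 and 4 than in replicate 3 on the log2(TPM + 1) scale, and 9 of these were protein-coding, of 9222 protein-coding genes (0.0976%). They were Fos, Fosb, Egr1, Hbegf, Trib1, Igfbp5, Krt6b, Muc3 and Sprr1a. Hbegf, an epidermal growth factor receptor ligand, measured 1.18 and 2.49 in Control and 2.56, 1.43 and 2.73 in SIGLEC12. Trib1, a pseudokinase, measured 1.11 and 2.55 in Control and 2.88, 1.87 and 2.90 in SIGLEC12. For Hbegf and Trib1, as for Fos and Fosb, Control replicate 1 was lower than Control replicate 4. Krt6b, a keratin of wounded and squamous epithelium, and Sprr1a, a cornified envelope precursor, were highest in Control replicate 1, at 9.17 and 8.53, and measured 4.72 and 6.16 in Control replicate 4. Igfbp5 and Muc3 lay at 1.21 and 5.32 in SIGLEC12 replicate 3 and at 2.71 and 6.83 in replicate 4.

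Hspa1b, the near-identical copy of Hspa1a, was named after its values were seen. It measured 4.16 and 2.47 in Control and 2.64, 2.02 and 1.76 in SIGLEC12, and Control replicate 1 was the highest sample for it, as it was for Krt6b and Sprr1a. Jdp2, a repressor in the AP-1 family also named after its values were seen, was at 2.10 and 1.04 in Control and 2.19, 0.76 and 0.62 in SIGLEC12, so its high samples were Control replicate 1 and SIGLEC12 replicate 2.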
